A study of Mus musculus with 46 samples.

Results

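The comparison described here sets microglia that were repopulating the mouse brain, sorted as negative for Ki67, against microglia of untreated adult mice. It was chosen by the labels of the count table: the 2 RNA libraries labelled Ki67-negative from the recovery phase after PLX5622, and the 2 RNA libraries of adult basal mice, which are 4 of the 10 RNA libraries and 4 of the 46 samples of the series. Of the 20999 genes in the table, 12230 had enough counts to be tested, and all of them entered the test. The repopulating cells came from male C57BL/6 mice of genotype Ki67-rfp, killed at 75 days of age. These mice had received PLX5622 in the diet from 55 days of age for 17 days and had then recovered for 3 days. PLX5622 inhibits CSF1R, the receptor on which microglia depend for survival, so that the diet depletes them and its withdrawal lets them return. The adult cells came from male C57BL/6 mice of genotype WT, without treatment, at 90 days of age. The labels call the adult cells Ki67-negative as well, although these mice carried no reporter. Repopulating Ki67-positive cells (same genotype, age and diet) and Ki67-negative cells of Ki67-rfp mice at 8 days of age (PND8) served as further groups of 2 libraries. Each library was made from 200000 sorted cells, and the labels describe the 2 libraries of a group as independent biological replicates. Genotype, age, diet and a numeric code in the column headers all differ between the repopulating and the adult group, and their parts in any difference cannot be told apart.

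Microglia are the resident macrophages of the brain and renew themselves by local division. When most of them have been removed, the remaining cells divide and refill the tissue within days. A dividing cell first copies its DNA in S phase, with enzymes driven by E2F transcription factors, and then separates the copies in G2 and mitosis, with a later wave of genes that includes Mki67 itself. The Ki67 protein accumulates through the cycle and is broken down after division, so a cell low in Ki67 can be resting, newly divided or just entering the cycle.

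The 4 libraries held 6865903 to 9771006 counts, and 13557 to 14093 genes had at least 1 count. A gene with 3 counts would stand at 0.312 to 0.457 CPM (counts scaled to a library total of 1000000) in a single library, which was taken as the floor. CPM values below use TMM-scaled library sizes, give adult replicates 1 and 2 and then repopulating replicates 1 and 2, and rest on n = 2 libraries a group. Log2 fold changes come from the fitted model. Their standard errors (SE) were derived as the absolute log2 fold change divided by the square root of the test's F statistic. For genes near the floor in a group they are approximate. All 10 microglial markers examined (among them P2ry12, Tmem119, Cx3cr1, Sall1, Siglech, Gpr34, Olfml3, Fcrls and Csf1r) were abundant, the lowest at 312 CPM, and their sum was 9709 and 9835 CPM in adult against 8048 and 9423 CPM in repopulating cells. Neutrophil markers moved with the groups. The 13 markers other than Csf3r, which stood at 794 and 820.4 CPM in adult and 781 and 855 CPM in repopulating cells, summed to 243 and 62.1 CPM in the adult libraries and to 0.104 and 0.457 CPM in the repopulating ones, where all 13 were at or under the floor. Markers of monocytes summed to 72.6 and 62.0 CPM in adult and 100.0 and 108 CPM in repopulating cells. Neuronal markers summed to at most 7.40 CPM and erythroid markers to at most 7.45 CPM in these 4 libraries. In sorted bulk samples, fewer cells of a type and less RNA per cell cannot be told apart.

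Repopulating Ki67-negative cells differed from adult cells at 4789 of 12230 genes, which is 39.2% of those tested (edgeR quasi-likelihood test, adjusted p under 0.05). Expression was higher at 2632 genes (21.5%) and lower at 2157 (17.6%). That majority turned with other scalings, to 2416 higher and 2479 lower with library totals in place of TMM factors and to 2322 and 2596 with limma on log2(TPM + 1). The median log2 fold change over all genes tested was -0.01. Rises were larger than falls: the median was 0.81 among the genes called higher and -0.58 among those called lower. More than a 4-fold difference was found at 605 of the higher and 136 of the lower genes. A test against a fold of 2 called 760 genes (6.21%), of which 632 were higher. Leaving out adult replicate 1, adult replicate 2 or repopulating replicate 2 lowered the number of calls to 3158, 3158 and 3078. The 2 groups did not overlap at any of the 4789 called genes, but with 2 libraries a group this was common: over all genes tested the groups did not overlap at 4470 higher and 4561 lower genes.

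Among genes reaching 10 CPM in both libraries of the higher group, Fbn2, Cd36, Gcm2, Rrm2, BC030867, Bub1 and Rmi2 were 7 of the 8 largest rises. Fbn2, which encodes the extracellular matrix protein fibrillin 2 (chr18:58008623-58209926), had no count in either adult library and 39.1 and 50.3 CPM in the repopulating ones, at least 125-fold higher with 3 counts per library as the floor. Cd36, a scavenger receptor that takes up oxidised lipids and fatty acids, rose from 2.20 and 1.22 to 178 and 264 CPM (log2 fold change 6.99, SE 0.45, adjusted p = 9.76e-08). Gcm2, a transcription factor known from the parathyroid gland, rose from 0 and 0.611 to 33.0 and 30.8 CPM (log2 fold change 6.68, SE 0.48, adjusted p = 3.98e-07). BC030867 rose from 0 and 0.733 to 25.2 and 35.0 CPM. Rmi2, a subunit of the complex that dissolves recombination intermediates, had 2 counts in all in adult cells and stood at 10.2 and 11.0 CPM after repopulation, a ratio of 88.5 with a 95% counting interval of 24.1 to 736. Rrm2 and Bub1 belong to the lists described below. For these 7 genes the repopulating libraries lay far above both adult libraries. In repopulating Ki67-positive cells Fbn2 stood at 48.8 and 61.6 CPM, Cd36 at 233 and 312 CPM and Gcm2 at 34.4 and 26.9 CPM, and none of the 3 was called against the Ki67-negative cells. In PND8 Ki67-negative cells they stood at 0.371 and 0.275, 5.69 and 12.9 and 0 and 0.0917 CPM.

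By the same limit of 10 CPM the largest falls were those of Trim12a, Ltf, Ngp, Ccdc162, Map7, Abhd14b, Trim30d and Fos. Ltf (lactoferrin) and Ngp (neutrophilic granule protein) are granule genes of neutrophils and belong to the marker list given above. Ltf stood at 57.7 and 11.1 CPM in the adult libraries and had no count in the repopulating ones, at least 89.5-fold lower, or at least 28.9-fold with adult replicate 2 alone. Ngp fell from 83.4 and 20.2 to 0 and 0.152 CPM. Both transcripts were higher in adult replicate 1 than in adult replicate 2. Ccdc162 fell from 33.4 and 27.5 to 0.104 and 0.152 CPM, a ratio of 247 with a 95% counting interval of 68.0 to 2044. Map7, which encodes a microtubule-associated protein, fell from 40.1 and 32.6 to 0.625 and 0.152 CPM, and Abhd14b from 32.3 and 31.8 to 1.35 and 0.305 CPM. Abhd14b was also low in PND8 Ki67-negative cells (1.73 and 0.642 CPM), whereas Map7 differed widely between the 2 PND8 libraries (42.6 and 7.15 CPM).

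Trim12a and Trim30d lie in a cluster of related Trim genes on chromosome 7 (mm10). The other members were chosen after their values were seen. Trim12a (chr7:104299897-104315495) fell from 56.3 and 56.2 CPM to no count, at least 146-fold, and Trim30d (chr7:104470014-104507849) from 126 and 120.4 to 5.20 and 5.94 CPM (log2 fold change -4.47, SE 0.18, adjusted p = 2.84e-09). Trim5 fell from 23.9 and 24.7 to 1.77 and 1.68 CPM and Trim34a from 40.6 and 39.8 to 17.5 and 20.4 CPM. In the same cluster Trim34b rose from 0.347 and 0.489 to 24.6 and 24.8 CPM, Trim12c from 59.1 and 62.8 to 108 and 102 CPM and Trim30a from 167 and 161 to 277 and 292 CPM. Neighbouring paralogs thus moved in opposite directions, and counts of near-identical copies can be split between them, so the single values are uncertain. Repopulating Ki67-positive cells had 0.116 and 0 CPM of Trim12a and PND8 Ki67-negative cells 0 and 0.183 CPM. Both groups carry the Ki67-rfp genotype, which the adult group lacks, and genotype cannot be told apart here from age and diet.

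Genes of S phase and of G2 and mitosis rose together against adult cells. Of 42 S phase genes tested, 37 were higher, none lower and 5 not called, with a median log2 fold change of 2.76. Of 52 G2/M genes, 48 were higher, 1 lower (Hjurp, a histone chaperone of centromeres, not called without either adult library or repopulating replicate 1) and 3 not called, with a median of 3.82. Over all genes tested the shares were 21.5% higher and 17.6% lower and the median -0.01. Mki67, the proliferation marker that names the sort, stood at 13.4 and 11.0 CPM in adult and 336 and 463 CPM in the cells sorted as negative (log2 fold change 5.03, SE 0.19, adjusted p = 1.82e-09). Cells sorted as Ki67-negative thus held Mki67 RNA well above the adult level in both libraries.

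Rrm2, the regulated subunit of ribonucleotide reductase, which makes DNA building blocks, rose from 1.50 and 1.34 to 106 and 158 CPM (log2 fold change 6.51, SE 0.31, adjusted p = 7.72e-09). Dtl, which directs the destruction of licensing factors during S phase, rose from 1.27 and 0.855 to 52.9 and 73.0 CPM (log2 fold change 5.85, SE 0.26, adjusted p = 5.37e-09). Uhrf1, which copies DNA methylation to the new strand, rose from 3.35 and 2.20 to 117 and 184 CPM, and Clspn, a checkpoint adaptor at the replication fork, from 1.04 and 1.83 to 51.5 and 72.5 CPM. Mcm5, a subunit of the replicative helicase, rose from 11.8 and 13.2 to 107 and 162 CPM (log2 fold change 3.42, SE 0.22, adjusted p = 7.88e-08). Repopulating replicate 2 was the higher of its pair in each. Cdca7 and Pold3 were the most abundant S phase genes not called, at 42.7 and 56.6 against 53.7 and 72.4 CPM and 61.5 and 71.6 against 68.7 and 79.4 CPM.

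Among the G2/M genes, Bub1, a kinase of the spindle checkpoint, rose from 0.694 and 0.489 to 38.2 and 60.6 CPM (log2 fold change 6.33, SE 0.40, adjusted p = 8.38e-08), and Nuf2, a kinetochore protein, from 0.347 and 0.733 to 24.5 and 32.3 CPM (log2 fold change 5.68, SE 0.34, adjusted p = 5.27e-08). Ccnb1, the mitotic cyclin B1, rose from 0.463 and 0.122 to 12.5 and 15.7 CPM (log2 fold change 5.49, SE 0.44, adjusted p = 6.28e-07). Psrc1, a spindle protein, rose from 0.810 and 0.244 to 25.5 and 22.6 CPM, and Top2a, the topoisomerase that untangles chromosomes, from 4.86 and 9.78 to 195 and 284 CPM (log2 fold change 5.04, SE 0.28, adjusted p = 2.49e-08). The adult level of these genes was close to the floor for Bub1, Nuf2 and Ccnb1 and clearly above it for Top2a. Rangap1 and Ctcf, which also serve outside mitosis, were the most abundant members not called (Rangap1 was called higher with DESeq2 and in 4 other settings), at 53.3 and 62.6 against 68.8 and 84.4 CPM and 136 and 132 against 123 and 137 CPM.

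The promoters of these genes were searched for short motifs known from each wave. The E2F motif TTTNNCGC was in the RefSeq promoter (250 bases before to 50 after the start, GRCm38.p6) of 14 of the 30 S phase genes with a promoter in the table, 46.7%, against 9.88% of the 9744 tested genes with one. The cell cycle homology region TTTGAA, known from mitotic genes, was in 33 of 46 G2/M genes, 71.7%, against 14.3%. The CCAAT box was in 35 of the 46, 76.1%, against 43.4%. Both strands were searched, E2F matches on opposite strands may overlap, and over all 27025 genes of the promoter table the shares were 5.93%, 20.2% and 41.1%. A match is a description of the letters and not a site of binding. The most abundant called members with a single promoter and a match are shown, 2 for each wave, with the motif in capitals: Mcm6 at chr1:128359656-128359955 (minus strand) and Mcm5 at chr8:75109259-75109558 (plus strand) with E2F motifs, Mki67 at chr7:135716330-135716629 (minus strand) and Top2a at chr11:99024140-99024439 (minus strand) with the cell cycle homology region.
Mcm6: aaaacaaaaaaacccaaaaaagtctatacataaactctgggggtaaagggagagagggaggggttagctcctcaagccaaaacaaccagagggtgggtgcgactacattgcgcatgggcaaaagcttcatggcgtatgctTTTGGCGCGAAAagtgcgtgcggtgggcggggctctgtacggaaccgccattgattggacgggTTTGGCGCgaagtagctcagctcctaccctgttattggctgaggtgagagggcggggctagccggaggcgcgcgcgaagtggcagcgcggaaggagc
Mcm5: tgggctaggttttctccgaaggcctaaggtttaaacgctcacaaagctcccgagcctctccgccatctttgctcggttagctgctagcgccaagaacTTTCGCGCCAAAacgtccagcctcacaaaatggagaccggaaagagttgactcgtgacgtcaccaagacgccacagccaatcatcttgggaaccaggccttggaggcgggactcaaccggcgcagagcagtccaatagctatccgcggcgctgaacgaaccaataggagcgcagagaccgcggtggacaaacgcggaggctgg
Mki67: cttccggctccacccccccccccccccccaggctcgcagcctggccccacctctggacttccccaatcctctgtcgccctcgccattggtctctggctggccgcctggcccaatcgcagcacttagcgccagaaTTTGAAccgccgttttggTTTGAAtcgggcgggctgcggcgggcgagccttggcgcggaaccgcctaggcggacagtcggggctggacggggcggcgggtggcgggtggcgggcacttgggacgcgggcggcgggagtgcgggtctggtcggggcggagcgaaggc
Top2a: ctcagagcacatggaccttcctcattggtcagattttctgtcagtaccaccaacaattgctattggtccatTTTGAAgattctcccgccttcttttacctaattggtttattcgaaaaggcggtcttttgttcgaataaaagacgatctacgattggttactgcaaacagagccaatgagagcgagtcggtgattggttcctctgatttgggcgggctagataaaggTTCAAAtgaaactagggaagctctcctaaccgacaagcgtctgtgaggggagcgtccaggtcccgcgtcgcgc

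Against repopulating Ki67-positive cells of the same diet, the Ki67-negative cells differed at 335 genes, 2.74% of those tested, with 106 higher (0.867%) and 229 lower (1.87%). That split was 609 higher and 604 lower with the header code added to the fit, 328 and 383 with the replicate number as a block, and 349 and 387 without the filter on low counts. This contrast shares the Ki67-negative libraries with the one above, and its libraries carry the same genotype, age and pair of header codes. Leaving out Ki67-negative replicate 1 lowered the number of calls to 105, leaving out Ki67-positive replicate 2 to 122, and a test against a fold of 2 called 31, all lower in Ki67-negative cells. The G2/M list, which holds Mki67, differed most between the sorted cells: 46 of 52 members were lower, none higher, and the median was -1.32, against 0.00 over all genes tested. The member count was 27 and 30 when those same libraries were left out. Within each header code all 52 members were lower in the Ki67-negative library, with medians of -1.36 (code 200309) and -1.24 (code 200313). Other lists differed less. No gene of the respiratory chain and ATP synthase was called, but 33 of 35 were lower within each code (medians -0.22 and -0.17). At an unadjusted p under 0.05 by edgeR 13 of them were lower and none higher. Of 35 homeostatic genes 10 were higher at that limit and none lower, with 2 called (Gas6 and Upk1b). Of all 12230 genes 6198 and 6028 were lower within the codes. The sort used a reporter of Mki67, so the difference of Mki67 between the sorted groups describes the sort. The other G2/M genes belong to the same wave, so the difference of the list cannot be read apart from the sort either. Mki67 stood at 930.1 and 1087 CPM in positive against 336 and 463 CPM in negative cells (log2 fold change -1.34, SE 0.15, adjusted p = 0.000198), and Ccnb1 at 56.1 and 75.9 against 12.5 and 15.7 CPM (log2 fold change -2.24, SE 0.20, adjusted p = 6.38e-05). Of genes chosen after their values were seen, Cdc20, the activator of the anaphase ligase, stood at 109 and 141 against 13.9 and 21.6 CPM (log2 fold change -2.83, SE 0.26, adjusted p = 6.58e-05), and Cdc25b, a phosphatase that starts mitosis, at 74.8 and 98.6 against 10.3 and 11.6 CPM (log2 fold change -2.99, SE 0.19, adjusted p = 2.6e-06). In adult cells the levels were 1.50 and 1.83 CPM for Cdc20 and 6.25 and 5.74 CPM for Cdc25b. The Cdc25b difference from adult was not called when either adult library or repopulating replicate 2 was left out.

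S phase genes did not follow that pattern. Against Ki67-positive cells 6 of 42 were higher in Ki67-negative cells and none lower, with a median of 0.34, and within the header codes the medians were 0.22 and 0.37. The 6 genes were Ung, Dtl, Hells, Ccne2, Cdc6 and Chaf1b. Leaving out Ki67-negative replicate 2 or Ki67-positive replicate 1 left 2 of them called. Ccne2, the cyclin E2 of the entry into S phase, stood at 5.20 and 5.87 CPM in adult, 40.9 and 61.3 CPM in repopulating Ki67-negative and 21.2 and 25.6 CPM in Ki67-positive cells (log2 fold change 1.12, SE 0.19, adjusted p = 0.00474). Cdc6, which loads the helicase on origins before S phase, stood at 0.925 and 0.855, 26.6 and 40.1 and 12.5 and 16.8 CPM in the same order (log2 fold change 1.18, SE 0.22, adjusted p = 0.00804). Ung, a repair glycosylase that removes uracil from DNA, stood at 0.810 and 0.733, 12.8 and 21.0 and 4.51 and 5.76 CPM (log2 fold change 1.71, SE 0.27, adjusted p = 0.00271). Of the transcription factors chosen after their values were seen, E2f1 stood at 4.97 and 4.15, 62.8 and 84.1 and 35.2 and 44.9 CPM (log2 fold change 0.87, SE 0.17, adjusted p = 0.0132). The calls of Cdc6 and E2f1 were lost without Ki67-negative replicate 2 or Ki67-positive replicate 1. For these 4 genes the Ki67-negative libraries were the highest of the 3 groups and no groups overlapped. The other 36 S phase genes were not called, among them Rrm2 at 108 and 143 CPM and Mcm5 at 86.3 and 124 CPM in Ki67-positive cells. With the header code, which the pairs share, added to the fit 18 of the 42 were higher and none lower, and within each code Mcm5 was higher in the Ki67-negative library.

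**Figure D1:**
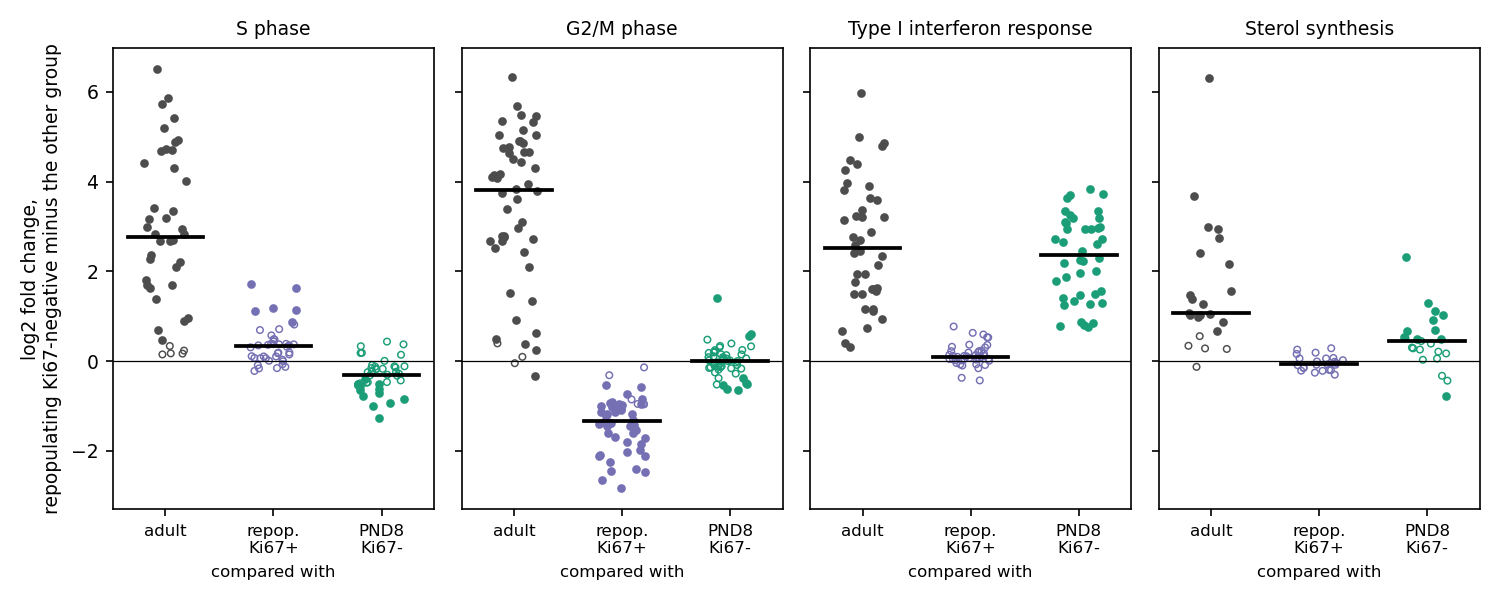
Log2 fold change of every tested member of 4 gene lists (points) in repopulating Ki67-negative cells minus adult, repopulating Ki67-positive and PND8 Ki67-negative cells; filled points were called, open points were not, and the black bar is the median. The 3 comparisons share the Ki67-negative libraries. G2/M genes lie at a median of 3.82 above adult and -1.32 below Ki67-positive cells, while interferon genes lie above adult and PND8 cells and near 0 against Ki67-positive cells.

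Against PND8 Ki67-negative cells, sorted in the same way from neonates, 4473 genes differed (36.6%), 2203 higher (18%) and 2270 lower (18.6%) in repopulating cells. Without repopulating replicate 1 the number of calls was 2869. With library totals in place of TMM factors the split was 1829 higher and 3064 lower. Of the G2/M genes 3 were higher, 6 lower and 43 not called, with a median of 0.01. Of the S phase genes 13 were lower and none higher, with a median of -0.31, and that count was 2 without repopulating replicate 1, 8 without PND8 replicate 2 and 20 without repopulating replicate 2. The G2/M counts also moved with PND8 replicate 2, without which 17 were higher and 2 lower. Mki67 stood at 242 and 282 CPM in PND8 Ki67-negative cells, below both repopulating libraries (log2 fold change 0.61, SE 0.15, adjusted p = 0.00595; not called without repopulating replicate 2), and Top2a at 204 and 267 CPM, overlapping with them (log2 fold change 0.02, SE 0.20, adjusted p = 0.953).

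Inhibitors of the cell cycle rose in the same cells. Of 21 genes of cyclin-dependent kinase inhibition and quiescence, 12 were higher, 2 lower and 7 not called against adult, with a median of 0.48. Among all genes tested 21.5% were higher and 17.6% lower. Without adult replicate 1 the number higher was 7. Cdkn1a, the inhibitor p21 that p53 induces, rose from 16.5 and 18.3 to 198 and 232 CPM (log2 fold change 3.62, SE 0.17, adjusted p = 6.38e-09). It was at 172 and 182 CPM in Ki67-positive cells (log2 fold change 0.28, SE 0.14, adjusted p = 0.362) and at 90.0 and 132 CPM in PND8 Ki67-negative cells (log2 fold change 0.95, SE 0.14, adjusted p = 0.000193). Cdkn2c, the inhibitor p18, rose from 5.20 and 3.67 to 44.2 and 56.2 CPM (log2 fold change 3.48, SE 0.24, adjusted p = 1.73e-07) and was still higher in Ki67-positive cells, at 100.4 and 127 CPM (log2 fold change -1.19, SE 0.18, adjusted p = 0.00191; not called without Ki67-negative replicate 1). Cdkn2d rose from 5.55 and 6.11 to 14.5 and 16.5 CPM, whereas Cdkn1c, the inhibitor p57, fell from 13.2 and 13.8 to 5.31 and 3.35 CPM (log2 fold change -1.61, SE 0.31, adjusted p = 0.00108). Rb1, the retinoblastoma protein, and Ccnd1, cyclin D1, were not called, at 136 and 149 against 175 and 163 CPM and 261 and 218 against 189.5 and 284 CPM.

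Of 20 p53 target genes, 14 were higher, 2 lower (Gdf15 and Btg2) and 4 not called against adult, with a median of 0.88. The shares over all genes tested were 21.5% higher and 17.6% lower. Leaving out any 1 of the 4 libraries left 1 called lower. Besides Cdkn1a, the largest rises among members with at least 10 CPM in both repopulating libraries were those of Gtse1, Tnfrsf10b and Bbc3. Gtse1, which is also a G2/M gene and restrains p53, rose from 2.20 and 1.22 to 30.9 and 38.4 CPM. Tnfrsf10b, a death receptor for TRAIL, rose from 1.16 and 1.71 to 23.4 and 28.5 CPM (log2 fold change 4.17, SE 0.57, adjusted p = 8.05e-05), and Bbc3, the pro-apoptotic protein PUMA, from 27.4 and 24.4 to 89.7 and 86.7 CPM (log2 fold change 1.77, SE 0.12, adjusted p = 1.18e-07). Sesn1 and Aen were not called, at 195 and 207 against 205 and 196 CPM and 27.1 and 21.1 against 21.3 and 15.8 CPM. Against PND8 Ki67-negative cells 12 of the 20 were higher and 2 lower, where 18% and 18.6% of all genes were. Against Ki67-positive cells 1 was lower (Gtse1, the G2/M gene) and none higher, where 1.87% and 0.867% of all genes were. The median there was 0.15. Within the header codes 2 and 4 of the 20 were lower in Ki67-negative cells, where 6198 and 6028 of all 12230 genes were.

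**Figure D2:**
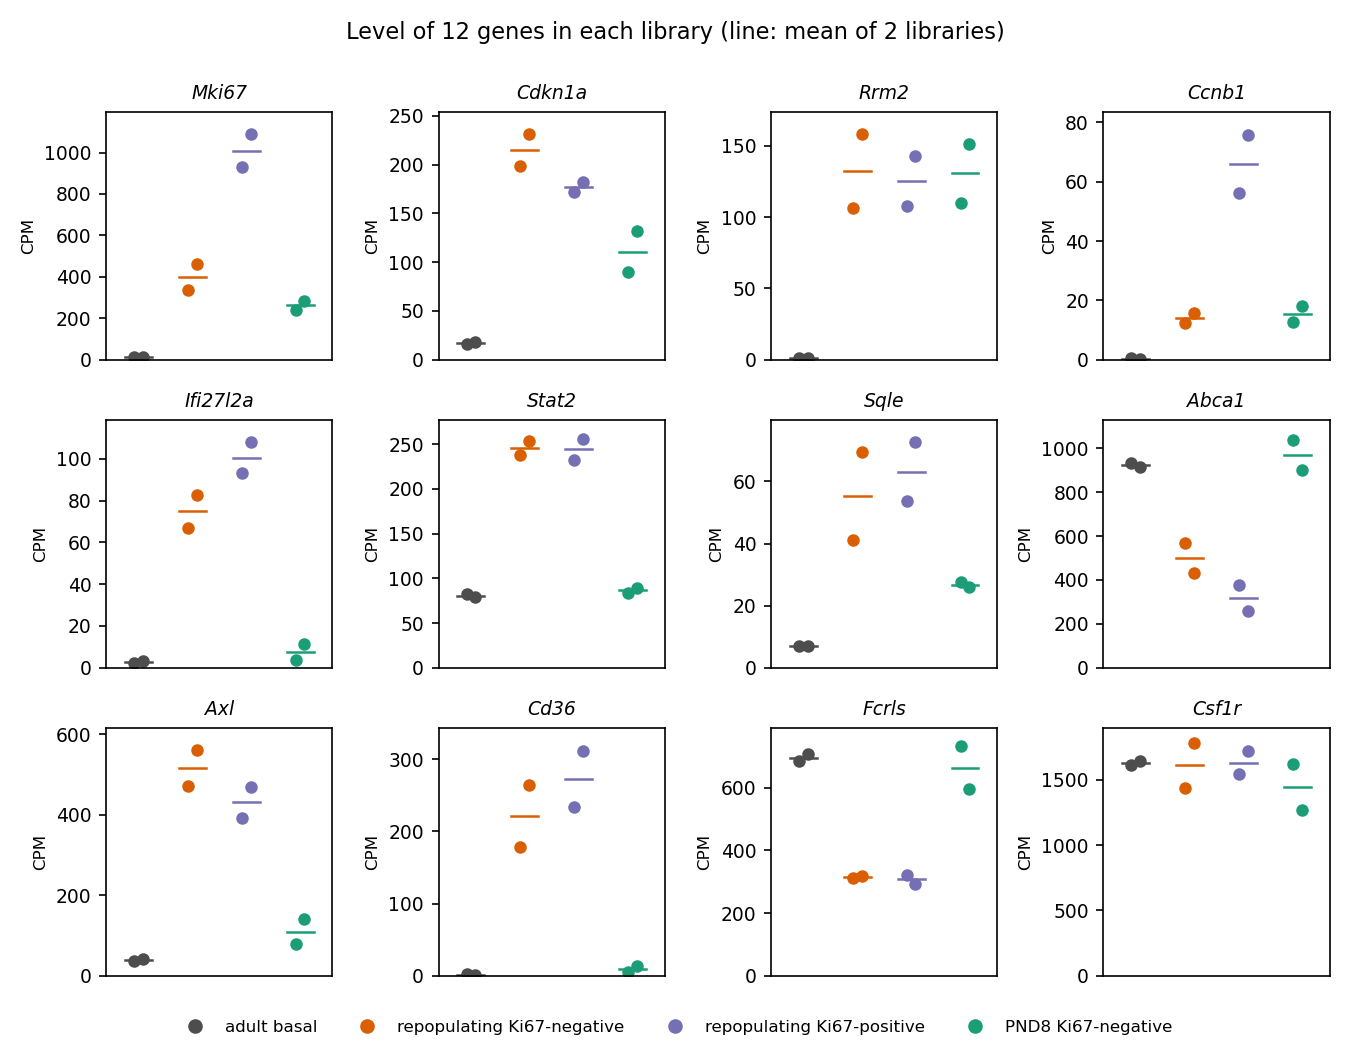
Level of 12 genes in CPM (vertical axes, linear from 0) in each of 2 libraries of 4 groups (points), with the mean of the pair as a line. Mki67 and Ccnb1 are highest in repopulating Ki67-positive cells, Ifi27l2a, Stat2, Axl and Cd36 are high in both repopulating groups, and Csf1r lies between 1267 and 1783 CPM in all 4.

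The type I interferon response was raised throughout the list. Type I interferons signal through a receptor with the kinases JAK1 and TYK2 to a complex that holds STAT2 and IRF9 and binds interferon-stimulated response elements and induces antiviral genes. All 42 listed genes were higher in repopulating Ki67-negative than in adult cells, with a median log2 fold change of 2.53 and a range of 0.32 to 5.97. Over all genes tested 21.5% were higher and 17.6% lower. The number of listed genes called higher was between 39 and 42 in every alternative setting except the test against a fold of 2, which called 33. Oas1g, a sensor of double-stranded RNA, rose from 0 and 0.611 to 18 and 21.3 CPM (log2 fold change 5.97, SE 0.58, adjusted p = 3.65e-06), and Ifit3b, which binds foreign RNA, from 0.925 and 0.122 to 18.5 and 16.5 CPM (log2 fold change 5.00, SE 0.55, adjusted p = 1.19e-05). Both have close paralogs among which reads may be split. Ifi27l2a rose from 2.08 and 3.05 to 67.1 and 82.6 CPM (log2 fold change 4.86, SE 0.39, adjusted p = 5.28e-07) and Ifi44 from 0.463 and 0.367 to 11.2 and 12.8 CPM (log2 fold change 4.80, SE 0.50, adjusted p = 6.68e-06). The following genes, Irf7 and Oas2, were chosen after their values were seen, for their place in the pathway. Irf7, the factor that amplifies interferon induction, rose from 10.8 and 14.3 to 108 and 122 CPM, and Oas2 from 10.9 and 11.7 to 242 and 264 CPM (log2 fold change 4.48, SE 0.15, adjusted p = 6.07e-10).

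Most of these promoters carried the core of the interferon-stimulated response element. Its letters GAAANNGAA, on either strand, were in the RefSeq promoters of 19 of the 30 list members with one in the table, 63.3%, against 8.83% of tested genes and 9.76% of all genes with a promoter there. The 3 most abundant called members with a single promoter and a match are shown with the motif in capitals, Stat2 at chr10:128270248-128270547 (plus strand), Eif2ak2 at chr17:78882523-78882822 (minus strand) and Trim25 at chr11:88999153-88999452 (plus strand). Eif2ak2 encodes the kinase PKR, which halts translation on double-stranded RNA, and its motifs overlap just after the start. Trim25 is a ubiquitin ligase that activates the RNA sensor RIG-I.
Stat2: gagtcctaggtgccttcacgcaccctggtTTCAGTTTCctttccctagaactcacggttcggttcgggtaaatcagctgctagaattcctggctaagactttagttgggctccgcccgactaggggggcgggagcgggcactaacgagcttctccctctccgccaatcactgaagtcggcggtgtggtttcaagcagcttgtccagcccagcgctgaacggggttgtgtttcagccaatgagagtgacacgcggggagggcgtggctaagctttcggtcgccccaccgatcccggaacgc
Eif2ak2: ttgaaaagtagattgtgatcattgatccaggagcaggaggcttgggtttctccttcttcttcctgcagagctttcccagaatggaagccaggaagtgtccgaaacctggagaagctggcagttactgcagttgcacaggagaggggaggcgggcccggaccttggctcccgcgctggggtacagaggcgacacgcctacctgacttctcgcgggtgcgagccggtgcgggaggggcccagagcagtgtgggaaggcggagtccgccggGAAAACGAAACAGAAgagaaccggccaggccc
Trim25: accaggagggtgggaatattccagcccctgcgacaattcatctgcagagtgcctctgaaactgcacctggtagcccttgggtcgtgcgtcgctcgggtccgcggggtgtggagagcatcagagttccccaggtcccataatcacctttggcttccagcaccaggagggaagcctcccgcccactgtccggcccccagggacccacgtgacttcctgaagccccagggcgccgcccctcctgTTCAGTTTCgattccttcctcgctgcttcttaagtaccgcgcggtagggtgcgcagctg
Stat2 rose from 82.1 and 79.3 to 238 and 254 CPM (log2 fold change 1.61, SE 0.09, adjusted p = 2.38e-08), Eif2ak2 from 81.4 and 72.0 to 222 and 251 CPM (log2 fold change 1.62, SE 0.10, adjusted p = 5.66e-08) and Trim25 from 108 and 102 to 203 and 199 CPM (log2 fold change 0.94, SE 0.08, adjusted p = 1.43e-06).

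Between the sorted cells the interferon list differed little. Within the header codes 12 and 9 of the 42 genes were lower in Ki67-negative cells, with medians of 0.06 and 0.11. Of all 12230 genes 6198 and 6028 were lower there. Against Ki67-positive cells none of the 42 genes was called in either direction by edgeR, and the median was 0.10. At an unadjusted p under 0.05 4 were higher and 1 lower, DESeq2 called 1 higher and none lower, and edgeR called 3 higher and 2 lower once the header code was added to the fit. Against PND8 Ki67-negative cells all 42 were higher, with a median of 2.37, where 18% of all genes were higher and 18.6% lower. Stat2 stood at 233 and 255 CPM in Ki67-positive and 83.5 and 89.6 CPM in PND8 Ki67-negative cells, and Ifi27l2a at 93.1 and 108 and 3.71 and 11.2 CPM. Repopulating and neonatal cells share the Ki67-rfp genotype but differ in age and diet, whose parts in this rise cannot be told apart. The cause of the rise against adult cells was not tested.

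Genes that make or sense interferon had a median near that of all genes, of which 21.5% were higher and 17.6% lower. Of 21 tested, 7 were higher, 2 lower and 12 not called, with a median of 0.10, and without adult replicate 1 the number higher was 4, while leaving out any 1 of the 4 libraries left none called lower. Ifna2, Ifna4, Ifnb1 and Ifng were not tested: Ifnb1 stood at 0 and 0 and 0.416 and 0 CPM in the respective pairs, Ifna2 at 0 and 0 and 0.104 and 0 CPM, and Ifna4 and Ifng had no count in these 4 libraries. Apart from Ifnb1 in repopulating replicate 1, RNA of these 4 cytokines was under the floor in these 4 libraries. Trex1, the exonuclease that clears cytosolic DNA, rose from 53.9 and 53.4 to 107 and 108 CPM (log2 fold change 1.0, SE 0.23, adjusted p = 0.00418), and Adar, which edits double-stranded RNA, from 156 and 171 to 315 and 325 CPM (log2 fold change 0.97, SE 0.08, adjusted p = 6.45e-07). Samhd1, which depletes nucleotides and is also interferon-induced, rose from 199 and 200.0 to 279 and 294 CPM, and Tlr3, the endosomal receptor of double-stranded RNA, from 227 and 217 to 292 and 326 CPM. Irf8 and Tmem173, the adaptor STING, were not called, at 482 and 484 against 460.4 and 501 CPM and 359 and 361 against 353 and 417 CPM.

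Of 15 genes of MHC class I presentation 11 were higher and none lower, with a median of 0.52, and that number was 7 without adult replicate 1, without adult replicate 2 and without repopulating replicate 2. Nlrc5, the transactivator of class I genes, rose from 29.3 and 26.3 to 175 and 190.3 CPM (log2 fold change 2.71, SE 0.20, adjusted p = 2.6e-07), Tap1, a peptide transporter subunit, from 98.8 and 96.2 to 214 and 254 CPM (log2 fold change 1.26, SE 0.15, adjusted p = 2.16e-05), and the class I genes H2-Q4 and H2-D1 from 40.9 and 44.8 to 92.6 and 109 CPM and from 214 and 222 to 330.2 and 406 CPM. Class I genes are near-identical copies whose reads can be split. Class II genes did not move one way: of 9 tested, 2 were higher, 3 lower and 4 not called. For both classes the shares over all genes tested were 21.5% higher and 17.6% lower. H2-Aa fell from 24.4 and 26.9 to 1.25 and 3.96 CPM (log2 fold change -3.38, SE 0.41, adjusted p = 2.84e-05) and H2-Eb1 from 25.1 and 22.7 to 2.08 and 4.72 CPM (log2 fold change -2.87, SE 0.40, adjusted p = 9.72e-05), both chains of the surface molecule. Cd74, the invariant chain, fell from 76.0 and 87.2 to 37.3 and 49.7 CPM (log2 fold change -0.92, SE 0.27, adjusted p = 0.017), a call that was lost with DESeq2, without adult replicate 2 and without repopulating replicate 1. H2-DMa, which loads peptides, rose from 106 and 109 to 184 and 225 CPM, and H2-Ab1 was not called at 21.2 and 29.3 against 38.1 and 34.0 CPM. Border macrophages are rich in class II. Their 13 markers summed to 1424 and 1535 CPM in adult and 1106 and 1091 CPM in repopulating cells. Of 12 tested, 7 were lower, 1 higher (Siglec1) and 4 not called. The 10 without Mrc1, Siglec1 and Stab1 summed to 21.3 and 34.6 CPM in adult and 8.22 and 4.72 CPM in repopulating cells. Both sums fell as H2-Aa and H2-Eb1 did, while Siglec1 rose. The part of border macrophages in the falls of class II genes was not tested.

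Most genes of sterol synthesis rose. Cells make cholesterol by a chain of enzymes that SREBP2 induces when sterol is low, and they export it under the control of the LXR receptors when sterol is high. Of 23 synthesis and uptake genes 18 were higher, none lower and 5 not called, with a median of 1.07. Over all genes tested 21.5% were higher and 17.6% lower. In the alternatives 16 to 19 were higher, apart from the test against a fold of 2, which called 9. Sqle, the epoxidase of squalene, rose from 6.94 and 6.84 to 41.2 and 69.5 CPM (log2 fold change 2.99, SE 0.25, adjusted p = 8.83e-07). Stard4, a sterol carrier, rose from 5.67 and 5.74 to 39.8 and 48.0 CPM (log2 fold change 2.93, SE 0.24, adjusted p = 6.45e-07). Both genes were higher in repopulating replicate 2 than in replicate 1, and neither library overlapped with adult. Fdft1 and Ebp, enzymes of the same chain, were not called, at 65.2 and 62.2 against 60.8 and 55.8 CPM and 43.7 and 48.9 against 52.1 and 65.8 CPM.

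Of the 16 sterol genes with a RefSeq promoter, all held a CCAAT box (43.4% of tested genes and 41.1% of all genes in the table did). The sterol regulatory element TCACNCCAC was found in 1 of them, Hmgcs1, 6.25% against 1.39% of tested genes and 1.44% of all. Hmgcs1, which makes the precursor of mevalonate, rose from 47.2 and 40.6 to 81.4 and 98.4 CPM (log2 fold change 1.03, SE 0.13, adjusted p = 3.15e-05), and its promoter at chr13:119690101-119690400 (plus strand) is shown with that element in capitals. Sqle was not in the promoter table.
Hmgcs1: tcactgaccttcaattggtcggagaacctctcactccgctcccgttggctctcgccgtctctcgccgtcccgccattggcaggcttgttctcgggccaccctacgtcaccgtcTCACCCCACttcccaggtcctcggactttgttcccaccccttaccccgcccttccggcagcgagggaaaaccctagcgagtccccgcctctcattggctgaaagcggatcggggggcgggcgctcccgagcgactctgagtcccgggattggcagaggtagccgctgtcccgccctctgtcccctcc

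None of the 23 sterol genes was called by edgeR against Ki67-positive cells, nor reached an unadjusted p under 0.05 (median -0.07). Against PND8 Ki67-negative cells 10 were higher and 1 lower, where 18% and 18.6% of all genes were. The count was 5 higher without PND8 replicate 2 and 4 without repopulating replicate 2. Sqle stood at 53.6 and 72.8 CPM in Ki67-positive and 27.6 and 26.0 CPM in PND8 Ki67-negative cells (log2 fold change 1.04, SE 0.21, adjusted p = 0.00204).

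On the export side 5 of 16 genes were higher, 6 lower and 5 not called, with a median of 0.01. Among all genes tested 21.5% were higher and 17.6% lower. Abca1, the transporter that loads cholesterol on lipoprotein, fell from 935 and 913 to 567 and 429.9 CPM (log2 fold change -0.89, SE 0.16, adjusted p = 0.000748), and Apoe, the main lipoprotein of the brain, from 149 and 173 to 61.2 and 55.5 CPM (log2 fold change -1.46, SE 0.13, adjusted p = 1.08e-06). Mylip, an LXR target that encodes a ubiquitin ligase, fell from 433 and 432 to 266 and 259 CPM (log2 fold change -0.72, SE 0.08, adjusted p = 1.28e-05), and Abca9 from 847 and 837 to 551 and 517 CPM. Abca1 was lower still in Ki67-positive cells, at 376 and 257 CPM (log2 fold change 0.66, SE 0.16, adjusted p = 0.0494), a call lost with DESeq2 and when Ki67-negative replicate 1 or Ki67-positive replicate 2 was left out. Apoe was higher in PND8 Ki67-negative cells, at 543 and 474 CPM (log2 fold change -3.12, SE 0.13, adjusted p = 1.33e-09). Lpcat3 and Nr1h2, the receptor LXR beta, were not called, at 225 and 224 against 215 and 223 CPM and 137 and 134 against 121 and 121 CPM.

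**Figure D3:**
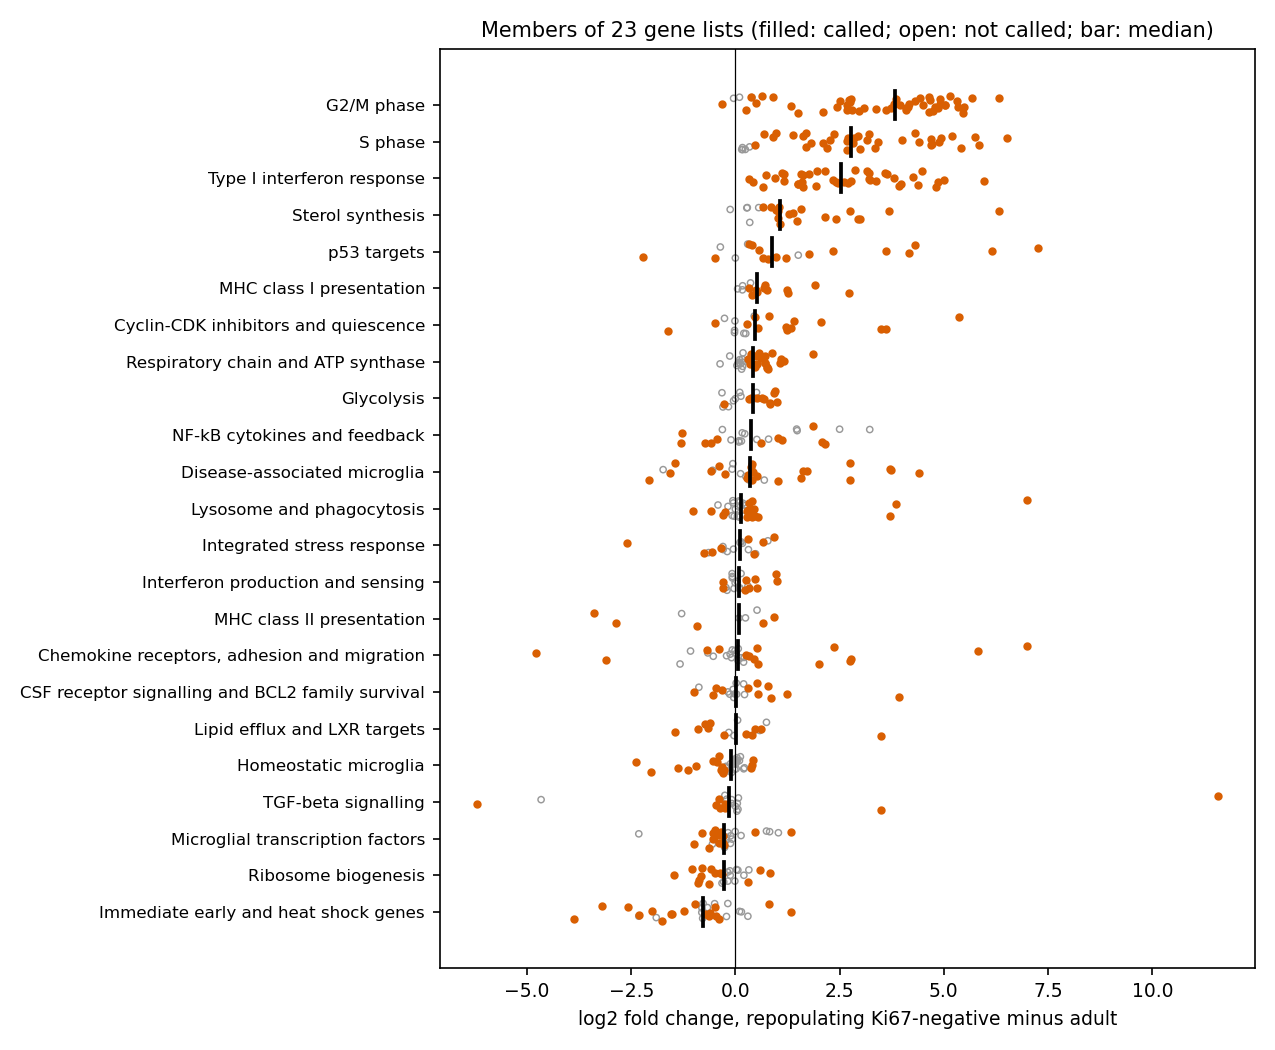
Log2 fold change (horizontal axis), repopulating Ki67-negative minus adult, of each tested member of 23 gene lists, which are ordered by their median (black bar); filled points were called and open points were not. G2/M, S phase and interferon lists lie furthest to the right and immediate early genes furthest to the left.

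Genes that mark resident, homeostatic microglia stayed abundant. Of 35 tested, 3 were higher, 13 lower and 19 not called, with a median of -0.10 (from -0.23 to 0.03 in the alternatives), and the number lower was 7, 8 and 7 without adult replicate 1, adult replicate 2 and repopulating replicate 1. The share called lower was 13 of 35 where 17.6% of all genes were. Csf1r, the receptor that PLX5622 blocks, stood at 1613 and 1643 CPM in adult and 1439.9 and 1783 CPM in repopulating cells (log2 fold change -0.02, SE 0.12, adjusted p = 0.938). Tmem119, P2ry12 and Tgfbr1, identity genes of surface, purine sensing and TGF-beta signalling, were not called either. Tmem119 stood at 776 and 794 against 694 and 855 CPM and P2ry12 at 967 and 963 against 819.6 and 958 CPM. The falls with the largest fold were those of Upk1b, Crybb1, Lag3 and Fcrls. Upk1b, a tetraspanin, fell from 154 and 146 to 32.1 and 24.5 CPM (log2 fold change -2.39, SE 0.15, adjusted p = 8.38e-08). Crybb1, a crystallin, fell from 144 and 144 to 40.8 and 28.8 CPM (log2 fold change -2.03, SE 0.16, adjusted p = 4.83e-07). Lag3, an inhibitory receptor, fell from 378 and 389.8 to 162 and 134 CPM (log2 fold change -1.37, SE 0.12, adjusted p = 9.36e-07). Fcrls, an Fc receptor-like protein, fell from 683 and 707 to 312 and 318 CPM (log2 fold change -1.14, SE 0.10, adjusted p = 1.42e-06). Cx3cr1, the fractalkine receptor, fell by a smaller amount, from 1582 and 1575 to 1124 and 1298 CPM (log2 fold change -0.38, SE 0.11, adjusted p = 0.0126), a call lost without adult replicate 1, adult replicate 2 or repopulating replicate 1.

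Of 29 microglial transcription factors 2 were higher, 13 lower and 14 not called, with a median of -0.27. Among all genes tested 21.5% were higher and 17.6% lower. Rxra, the partner of LXR and other nuclear receptors, fell from 184 and 189.9 to 106 and 80.5 CPM (log2 fold change -1.0, SE 0.13, adjusted p = 3.74e-05), Mitf, a regulator of lysosomal genes, from 89.4 and 89.8 to 56.9 and 44.6 CPM (log2 fold change -0.81, SE 0.14, adjusted p = 0.000434), and Runx1, a factor of haematopoietic identity, from 332 and 329.8 to 219.8 and 204 CPM (log2 fold change -0.64, SE 0.08, adjusted p = 3.66e-05). Klf2, a factor of quiescence that is also induced by stimulation, rose from 13.8 and 23.8 to 42.7 and 51.7 CPM (log2 fold change 1.33, SE 0.34, adjusted p = 0.00708), though not without adult replicate 1. Sall1, the factor most particular to microglia among brain macrophages, and Mef2a were not called, at 1170.5 and 1177 against 975 and 1043 CPM and 878 and 878 against 715 and 752 CPM. Both were called lower with library totals in place of TMM factors and in other settings.

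TGF-beta keeps microglia in their homeostatic state. Of 19 tested genes of the pathway 2 were higher (Fbn2 and Itgb8), 6 lower and 11 not called, with a median of -0.16 (-0.09 with genes without counts in a group set at their bound), and leaving out any 1 of the 4 libraries left 3 called lower and 1 higher. The shares over all genes tested were 21.5% higher and 17.6% lower. The largest rise in the list was that of Fbn2, given above. Smad2, Smad3 and Smad7 fell, the first 2 as signal carriers and the last as an inhibitor, from 107 and 110.0 to 77.0 and 81.4 CPM, from 319 and 337 to 259 and 243 CPM and from 282 and 287 to 223 and 216 CPM. The call of Smad7 was lost when adult replicate 1, adult replicate 2 or repopulating replicate 2 was left out. Tgfbr1 stood at 1322 and 1351 against 1258 and 1420.0 CPM.

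Of 21 genes of CSF receptor signalling and BCL2 family survival 7 were higher, 4 lower and 10 not called, with 2 lower without adult replicate 2. The median was 0.02, and over all genes 21.5% were higher and 17.6% lower. Bcl2a1d and Bcl2a1a, anti-apoptotic copies of 1 gene family whose reads can be split, rose from 1.50 and 0.855 to 16.5 and 20.0 CPM and from 6.59 and 5.87 to 12.9 and 16.9 CPM. Csf2ra, a receptor chain for GM-CSF, rose from 203 and 207 to 354 and 390.2 CPM (log2 fold change 0.86, SE 0.08, adjusted p = 2.97e-06), and Bid, a pro-apoptotic member, fell from 96.6 and 98.4 to 48.3 and 49.4 CPM (log2 fold change -1.0, SE 0.15, adjusted p = 0.000141).

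Genes known from disease-associated microglia split, where 21.5% of all genes tested were higher and 17.6% lower than in adult. Of 30 tested, 16 were higher, 6 lower and 8 not called, with a median of 0.35, and 9 or 10 were higher without adult replicate 1 or repopulating replicate 2. Ch25h, which makes 25-hydroxycholesterol and is interferon-induced, rose from 1.73 and 1.71 to 30.6 and 43.6 CPM (log2 fold change 4.41, SE 0.44, adjusted p = 4.52e-06). Cybb, the catalytic subunit of the phagocyte NADPH oxidase, rose from 26.4 and 19.6 to 263 and 355 CPM (log2 fold change 3.74, SE 0.25, adjusted p = 1.32e-07), Axl, a receptor for dying cells, from 37.0 and 41.9 to 471 and 561 CPM (log2 fold change 3.71, SE 0.24, adjusted p = 8.82e-08), and Spp1, osteopontin, from 6.48 and 5.99 to 38.0 and 47.2 CPM (log2 fold change 2.76, SE 0.21, adjusted p = 3.49e-07). The list's members that fell were Apoe, Clec7a, Cd63, Lgals3, Trem2 and Timp2. The neonatal cells differed in which members were high. Spp1 stood at 238 and 279.7 CPM in PND8 Ki67-negative cells, above both repopulating libraries (log2 fold change -2.61, SE 0.16, adjusted p = 3.95e-08), whereas Cybb stood at 12.9 and 17.2 CPM (log2 fold change 4.34, SE 0.26, adjusted p = 4.64e-08) and Axl at 78.8 and 139.8 CPM (log2 fold change 2.23, SE 0.22, adjusted p = 4.23e-06), below them. Of the 30 members, compared with PND8 Ki67-negative cells, 9 were higher and 13 lower, where 18% and 18.6% of all genes were. Spp1 was also higher in Ki67-positive cells, at 67.1 and 96.1 CPM (log2 fold change -0.94, SE 0.16, adjusted p = 0.00455), a call lost without Ki67-negative replicate 1 or Ki67-positive replicate 2.

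Of 30 genes of chemokine reception, adhesion and migration 11 were higher, 4 lower and 15 not called, with 2 lower without repopulating replicate 1 and a median of 0.06. Over all genes 21.5% were higher and 17.6% lower. Itgal, an integrin chain of leukocytes, rose from 0.347 and 1.34 to 43.3 and 52.9 CPM (log2 fold change 5.82, SE 0.56, adjusted p = 2.97e-06), Cd44, a receptor for hyaluronan, from 5.20 and 4.28 to 30.6 and 34.9 CPM (log2 fold change 2.78, SE 0.26, adjusted p = 2.14e-06), and Itgax, the integrin CD11c, from 28.6 and 25.7 to 174 and 190.3 CPM (log2 fold change 2.74, SE 0.17, adjusted p = 6.15e-08). An antibody to CD44 was among those used on the cells before the sort, and the labels do not give the gate. Monocytes express Itgal and Cd44. Of the 13 monocyte markers, 10 tested, 6 were higher (Plac8, Ms4a4c, Vcan, S100a4, Fn1 and Itga4), 3 lower (Chil3, F13a1 and Nr4a1) and 1 not called (Ccr2). All 13 summed to 72.6 and 62.0 CPM in adult and 100.0 and 108 CPM in repopulating Ki67-negative cells. In Ki67-positive cells they summed to 122 and 146 CPM. Ly6c2, which was not tested, stood at 0.416 and 0.305 CPM and Ccr2 at 8.85 and 8.38 CPM in repopulating Ki67-negative cells. The part of monocytes in these rises was not tested. Itgb5 and Selplg were not called, at 725 and 757 against 766 and 949 CPM and 861 and 858 against 781 and 959 CPM.

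Of 35 genes of lysosome and phagocytosis 14 were higher, 4 lower and 17 not called, with a median of 0.12, where 21.5% and 17.6% of all genes tested were higher and lower. The number higher was 7, 8 and 6 without adult replicate 1, adult replicate 2 and repopulating replicate 2, and the number lower was 1 or 2 without any 1 of the 4 libraries. Besides Cd36 and Axl, Cd300lf, a receptor for phosphatidylserine and other lipids, rose from 3.59 and 2.81 to 43.4 and 49.4 CPM (log2 fold change 3.85, SE 0.25, adjusted p = 8.7e-08), and Stab1, a scavenger receptor, fell from 1338 and 1429 to 939 and 905 CPM (log2 fold change -0.58, SE 0.09, adjusted p = 0.000257). The proteases Ctsd and Ctsb were not called, at 1095 and 1129.7 against 1083 and 1339.7 CPM and 886 and 911 against 798 and 924 CPM.

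Of the tested immediate early and heat shock genes, 16 of 31 fell in repopulating cells, where 17.6% of all genes tested were lower and 21.5% higher. These genes respond within minutes to stimulation, and also to the isolation of cells. Another 2 were higher (Klf2 and Klf4) and 13 not called, with a median of -0.78, and none was called higher without adult replicate 1. Fos fell from 50.8 and 64.2 to 5.10 and 2.29 CPM (log2 fold change -3.87, SE 1.06, adjusted p = 0.0108), a call lost when either repopulating library was left out. Dusp1, a phosphatase of the MAP kinases, fell from 27.8 and 30.1 to 10.2 and 6.40 CPM (log2 fold change -1.77, SE 0.30, adjusted p = 0.000448), and Atf3, a stress factor, from 34.9 and 32.7 to 15.6 and 7.01 CPM (log2 fold change -1.53, SE 0.27, adjusted p = 0.00055). Klf6 and Ier5 were not called, at 237 and 246 against 263 and 253 CPM and 254 and 251 against 175 and 182 CPM. Per the labels, butyrate and flavopiridol were present in the ice-cold buffer for all RNA groups. Within the PND8 Ki67-negative group Fos stood at 297 and 78.9 CPM, a wide spread between 2 libraries that carry different header codes.

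Inflammatory genes driven by NF-kB showed no common direction: of 24 tested, 6 were higher, 5 lower and 13 not called. The median was 0.37 (0.19 with genes without counts in a group set at their bound). These counts were near the shares over all genes tested, 21.5% higher and 17.6% lower. Ccl2 and Ccl12, chemokines that attract monocytes, rose from 3.47 and 4.89 to 14.3 and 21.2 CPM and from 17.6 and 16.1 to 51.9 and 71.3 CPM. Ccl4, a chemokine of activated microglia, fell from 23.5 and 28.8 to 11.1 and 9.75 CPM (log2 fold change -1.31, SE 0.30, adjusted p = 0.004). Icam1 and Nlrp3 were not called, at 214 and 198 against 218 and 243 CPM and 246 and 198 against 197 and 216 CPM. Of 19 genes of the integrated stress response 4 were higher, 4 lower and 11 not called, near the shares over all genes (21.5% and 17.6%). Atf4, its central factor, fell from 156 and 161 to 103 and 112 CPM (log2 fold change -0.56, SE 0.08, adjusted p = 0.000134), and Psat1, a serine synthesis enzyme, rose from 36.3 and 33.4 to 59.5 and 73.9 CPM (log2 fold change 0.93, SE 0.14, adjusted p = 0.000138). Without adult replicate 1 or repopulating replicate 2 the number higher was 2, and without adult replicate 2 or repopulating replicate 1 the number lower was 2.

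Metabolic lists had smaller medians, and the shares over all genes tested were 21.5% higher and 17.6% lower. Of 35 subunits of the respiratory chain and ATP synthase 21 were higher and none lower, with a median of 0.43, and 13 and 12 were higher without adult replicate 2 and repopulating replicate 2. Ndufa1, a complex I subunit, rose from 4.63 and 5.99 to 18.4 and 20.3 CPM (log2 fold change 1.86, SE 0.28, adjusted p = 0.000204), and Cox4i1, a subunit of cytochrome oxidase, from 46.1 and 48.8 to 89.7 and 109.9 CPM (log2 fold change 1.07, SE 0.11, adjusted p = 8.29e-06). Of 20 glycolysis genes 10 were higher, 1 lower (Hk2, not called without any 1 of the 4 libraries) and 9 not called, with a median of 0.42. Pkm, pyruvate kinase, rose from 162 and 172 to 281 and 366 CPM (log2 fold change 0.95, SE 0.12, adjusted p = 3.64e-05), and Slc16a3, a lactate exporter, from 76.3 and 73.7 to 140.2 and 160.3 CPM (log2 fold change 1.0, SE 0.11, adjusted p = 1.28e-05). Ribosome biogenesis went the other way although the cell cycle lists rose. Of its 25 genes 3 were higher, 11 lower and 11 not called, with a median of -0.28, and 7 were lower without adult replicate 2. Rrp9, a component of the small subunit processome, fell from 21.4 and 20.7 to 6.87 and 8.38 CPM (log2 fold change -1.48, SE 0.20, adjusted p = 7.11e-05), Polr1b, a subunit of RNA polymerase I, from 41.2 and 53 to 20.7 and 25.0 CPM (log2 fold change -1.05, SE 0.16, adjusted p = 0.000192), and Nolc1 from 62.9 and 61.8 to 35.0 and 31.4 CPM. Myc, which drives these genes in many cells, was not called at 77.1 and 50.8 against 45.4 and 57.6 CPM. Compared with PND8 Ki67-negative cells, 20 of the 25 were lower and none higher, where 18.6% and 18% of all genes were. Nolc1 stood at 68.1 and 79.8 CPM there (log2 fold change -1.15, SE 0.14, adjusted p = 2.66e-05).

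Among other cells, 9 astrocyte markers (without Slc1a3) summed to 7.86 and 5.99 CPM in adult and 17.3 and 16.5 CPM in repopulating cells. Of the 8 tested in all, Aldh1l1 was the only one called, from 0.578 and 0 to 9.78 and 8.69 CPM (log2 fold change 4.90, SE 0.64, adjusted p = 5.51e-05). Slc1a3, a glutamate transporter, was not called at 233 and 243 against 487 and 552 CPM, though it was with only these 2 groups in the fit and without the filter on low counts, and its PND8 Ki67-negative libraries stood far apart at 70.5 and 421 CPM.

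Promoter acetylation was compared with the expression calls. H3K27ac marks active promoters and enhancers, and the authors' region lists cover adult cells (WT mice, 60 and 65 days of age) and repopulating Ki67-positive cells (WT mice, 90 days of age, same diet lengths), each with 2 libraries. No H3K27ac list of repopulating Ki67-negative cells was used here, so the regions describe other cells of the same recovery phase. The lists held 19572 and 24903 regions in adult and 30129 and 27008 in repopulating cells, and a start counted as marked when a region of both libraries lay within 500 bp. Of all 12230 tested genes 67.8% were marked in adult and 78.3% in repopulating cells. Genes called higher in repopulating Ki67-negative cells were marked in 61.9% (95% Wilson interval 60.0 to 63.7) and 80.8% (79.3 to 82.3), and genes called lower in 72.1% (70.2 to 73.9) and 79.0% (77.2 to 80.6). The intervals cover counting error only. The difference between adult and repopulating lists was thus wider among genes called higher than among all tested genes, and narrower among genes called lower. It was not tested, and the longer repopulating lists move with it.

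Of 1460 starts marked in repopulating cells only, 512 belonged to genes called higher and 212 to genes called lower, with a median log2 fold change of 0.17. Of 179 starts marked in adult cells only, 14 belonged to genes called higher and 64 to genes called lower, with a median of -0.32. Among all 12230 tested genes 2632 (21.5%) were called higher and 2157 (17.6%) lower, with a median of -0.01. By list, marked starts went from 23 to 38 of 42 S phase genes, from 28 to 49 of 52 G2/M genes, from 20 to 35 of 42 interferon genes and from 13 to 22 of 23 sterol genes. Homeostatic genes were marked at 33 of 35 starts in both. Mki67, Top2a, Rrm2, Mcm6, Stat2, Sqle and Axl were among the genes marked in repopulating cells only, whereas Mcm5, Cdkn1a, Hmgcs1, Abca1 and Fcrls were marked in both and Cd36, Apoe and Upk1b in neither.

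**Figure D4:**
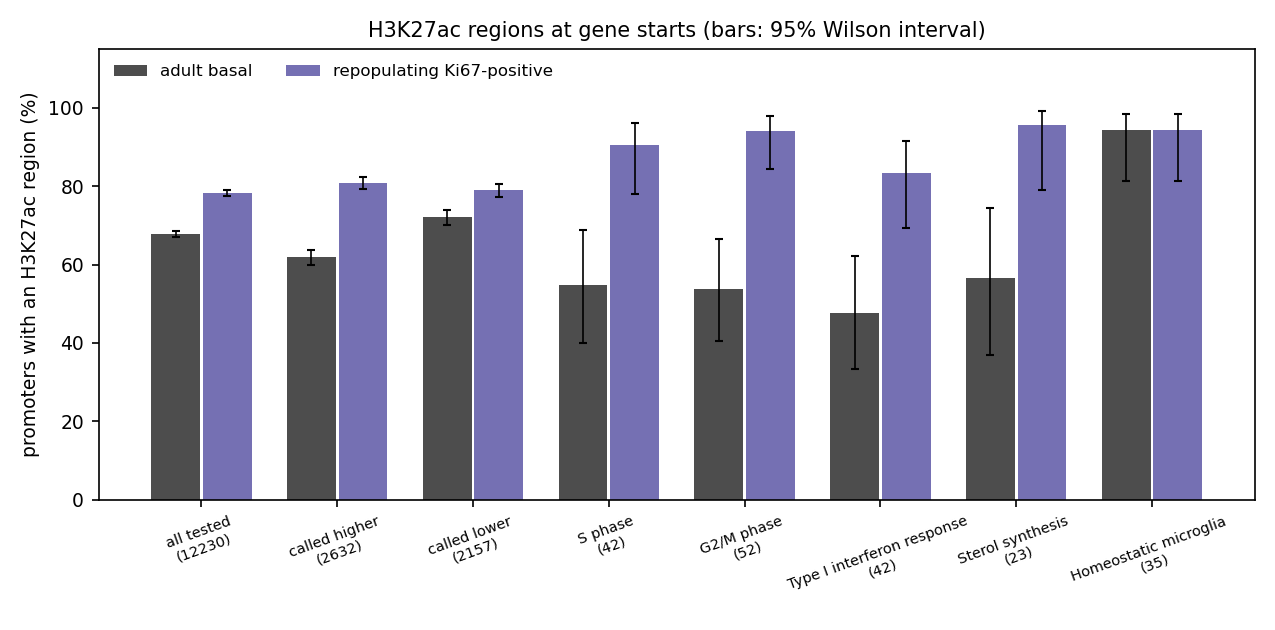
Share of transcript starts with an H3K27ac region of both libraries within 500 bp (bars from 0, in percent, with 95% Wilson intervals) in adult and repopulating Ki67-positive cells, for tested genes by their call in repopulating Ki67-negative against adult cells and for 5 gene lists, with the number of genes in parentheses. Among genes called higher the share is 61.9% in adult and 80.8% in repopulating cells, and among homeostatic genes 94.3% in both.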

How the data were processed

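The data are the authors' deposited table of raw counts per gene, made with HOMER per the file headers, which record at most 3 tags counted per position, and their deposited TPM table. The submitters' processing notes name STAR 2.7.0f, Bowtie2 2.3.4.1, HOMER 4.11 and DESeq2 and the builds mm10 and GRCm38. The deposited H3K27ac region lists give a signal per region, per the file headers, and only the positions were used here. The members and the gene lists were chosen with earlier results of these data known.

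Counts were tested with edgeR 4.0.16 (R 4.3.3, limma 3.58.1): TMM scaling, filterByExpr, and a quasi-likelihood fit of all 10 RNA libraries in 5 groups of 2, with Benjamini-Hochberg adjustment over the 12230 tested genes and a threshold of 0.05. Of the 20999 rows 20863 were protein-coding genes. CPM was computed here with TMM-scaled library sizes. The common biological coefficient of variation was 0.0957. The step was tested on simulated data for the comparison with adult cells: among 11967 genes it called 89 of 98 genes changed 2-fold and 99 of 100 changed 4-fold, all with the right sign, and 16 unchanged genes. The simulation gave every gene the common variation and all other genes equal means in the 5 groups. It thus does not cover genes that vary more between replicates, nor data in which many genes differ. Replicate counts differed by more than sampling noise: chi-square divided by its degrees of freedom was 2.55 for the adult pair and 5.46 for the repopulating Ki67-negative pair. It was 4.28 for the repopulating Ki67-positive pair and 12.2, the largest of these, for the PND8 Ki67-negative pair. The 4 libraries held 6865903 to 9771006 counts.

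Genes were named by rule: a panel (Mki67, Top2a, Mcm5, Csf1r, P2ry12, Tmem119, Cx3cr1 and Apoe), the 8 largest rises and falls among called genes with at least 10 CPM in both libraries of the higher group, and per list up to 4 called members with the largest fold and the 2 most abundant members not called. Lists with at most 12 tested members may be named whole. Promoter examples were the most abundant called members with a match. Other names were chosen after their values were seen. Of the listed symbols 2 had no row. There were 23 gene lists and 9 marker lists of other cells, described by counts and medians without a set test. Lymphocyte markers had 1 tested member, not called, and oligodendrocyte and endothelial markers summed to 213 to 246 and 68.4 to 86.6 CPM in the 4 libraries.

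Alternatives were DESeq2 1.42.0, library totals in place of TMM factors, no filter on low counts, limma on log2(TPM + 1) and log2(TPM + 0.1), a fit of only the 2 groups compared, a test against a fold of 2, the replicate number as a block, each library left out, and, chosen after seeing the data, the numeric code of the column headers as a term. That code differs between all adult and all repopulating libraries, so no fit can hold both for that comparison. Python 3.11 with pandas 2.3.3, numpy 2.4.6 and scipy 1.17.1 was used for tables and Wilson intervals. Promoter sequences come from RefSeq (GRCm38.p6). Some genes that the rule would name are not reported here.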

Additional observations from a re-analysis of the deposited data

How the results depend on the processing

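Against adult cells the number of genes called was 760 in the test against a fold of 2 and 3078 to 3756 with 1 of the 4 libraries left out, where a lone library is assumed to vary like the other groups. It was 4272 with DESeq2 and 4895 with library totals, which shifted the median of all genes by -0.04. Against Ki67-positive cells the number was 31 for a fold of 2, 202 with limma on log2(TPM + 0.1), 736 without the filter on low counts, 1213 with the header code as a term (chosen after seeing the data) and 105 to 305 with a library left out. Against PND8 Ki67-negative cells it was 600 for a fold of 2 and 2869 to 4725 with a library left out. With the replicate number as a block (replicate block) the counts were 5355 against adult, 711 against Ki67-positive and 5087 against PND8 cells. The main fit used the groups only and paired no libraries. Deviations of same-numbered libraries correlated at 0.010 between adult and repopulating Ki67-negative cells. They correlated at 0.263 between the repopulating groups and at 0.338 between the PND8 groups, where same-numbered libraries share a header code. The main fit against Ki67-positive cells thus leaves out a shared code. It called 335 genes against 1213 with the code, so genes not called there may be called with it. The cause of the moves in the number of calls was not tested.

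Requiring a region in at least 1 of 2 H3K27ac libraries gave shares of 72.7% in adult and 86.6% in repopulating cells for genes called higher, 83.0% and 85.9% for genes called lower, and 77.1% and 84.1% for all tested genes, and a window of 1000 bp gave 68.7% for all tested genes in adult cells. The median of the integrated stress response list was 0.11 and ranged from -0.075 (without adult replicate 1, the sign reversed) to 0.22 (without repopulating Ki67-negative replicate 1) with a library left out. In the comparison with adult cells, of 2099 alternative values for 175 named genes none reversed, 1980 stayed on the same side of the threshold, 80 lost and 39 gained a call. Setting aside the test against a fold of 2, 10 genes lost a call against adult: C4b, Cd74, Cdc25b, Cx3cr1, Fos, Gas6, Klf2, Nupr1, Smad7 and Trim30b. Calls against Ki67-positive and PND8 cells were not in this tally, and those lost there are given with the genes above. With 2 libraries a group, genes under the floor of 3 counts give no usable fold.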

Other observations

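The following genes were chosen after their values were seen. Siglec1, a sialic acid-binding receptor that interferon induces in macrophages, rose from 15.4 and 18.7 to 129 and 155 CPM (log2 fold change 3.06, SE 0.16, adjusted p = 1.58e-08). It was lower in Ki67-positive cells, at 76.6 and 83.5 CPM (log2 fold change 0.83, SE 0.14, adjusted p = 0.0043), and in PND8 Ki67-negative cells, at 34.7 and 43.2 CPM. Ikbke, a kinase of interferon induction, rose from 3.24 and 4.03 to 16.5 and 14.5 CPM (log2 fold change 2.09, SE 0.32, adjusted p = 0.000199) and stood at 5.90 and 4.61 CPM in Ki67-positive cells (log2 fold change 1.56, SE 0.31, adjusted p = 0.0136). C4b, complement component 4, stood at 9.95 and 15.9 and 23.8 and 21.8 CPM in the same order (log2 fold change 0.83, SE 0.22, adjusted p = 0.0102), a call lost without adult replicate 1 or repopulating replicate 1. Axl, given above, binds the ligands Gas6 and Pros1. Gas6 fell from 263 and 256 to 195 and 215 CPM (log2 fold change -0.34, SE 0.09, adjusted p = 0.00736), a call lost without adult replicate 1 or repopulating replicate 1, and Pros1 rose from 388 and 392 to 474 and 555 CPM (log2 fold change 0.40, SE 0.09, adjusted p = 0.00325). The receptor and 1 ligand thus rose while the other ligand fell. Spock1, a secreted proteoglycan, rose from 1.16 and 1.10 to 62.0 and 69.9 CPM (log2 fold change 5.85, SE 0.25, adjusted p = 4.62e-09).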
